A study of Mus musculus with 3 samples.

Results

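Timp2, the other tissue inhibitor of metalloproteinases (Timp) genes and a group of matrix protease genes were examined for regions recovered with the seRNA PAM. The members were 9 genes fixed by name, Timp1, Timp2, Timp3, Timp4, Mmp2, Mmp3, Mmp9, Mmp14 and Adam12, out of 22350 annotated protein-coding genes on the chromosomes covered. A region was assigned to a gene when it overlapped the annotated span of that gene (GENCODE M1, mm9) by at least 1 bp. By this rule 4 regions belonged to the members, 3 out of 2112 in the odd pool and 1 out of 345 in the even pool.

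The data came from PAM ChIRP-seq in activated satellite cells (ASCs), the cultured and proliferating form of the stem cells of skeletal muscle. In ChIRP-seq, biotinylated probes that are antisense to an RNA pull down that RNA with the chromatin crosslinked to it, and the DNA is sequenced. The cells were sorted from hindlimb muscle of Tg:Pax7-nGFP mice, in which nuclear GFP marks cells that express Pax7, and were cultured in medium with horse serum and FGF. The age of these mice, and whether animals were pooled, is not given in the sources used here. Both groups carried this transgene, were otherwise untreated, and differed only in the probe pool, odd or even. Crosslinking took 10 min in 1% glutaraldehyde, and each pool was hybridized for 4 h at 37 °C using 100 pmol of probes. There was 1 library per pool, so the values have no replicate error, no test between samples could be made, and all counts and shares are descriptions of these 2 libraries. An input library, the third sample, was not analysed here. Both lists hold regions and not expression, so the cell type label could not be checked against marker genes.

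Each deposited region carries a score, a whole number from 4 to 81 in the odd list (median 6) and from 4 to 68 in the even list (median 5). Its meaning is not given in the sources used here, and scores were ranked only within a list. Neither list holds read counts, so the depth is unknown, and a gene without a region is a gene for which none was listed. The study reports fewer PAM-bound regions than either list holds, and its methods do not say how they were derived from the pools. A region listed in a single pool is therefore not necessarily one of the regions the study reports, and this was not examined here.

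Timp proteins are secreted inhibitors that bind the active site of matrix metalloproteinases (MMPs), zinc enzymes that cleave collagens and other proteins of the extracellular matrix. TIMP2 has a second role, since it also links the proenzyme of MMP2, a gelatinase that digests basement membrane collagen, to the membrane-anchored enzyme MMP14, which then cleaves and activates proMMP2. Satellite cells lie under the basal lamina of the muscle fiber, and matrix turnover accompanies their activation and migration.

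The probes were 6 oligonucleotides of 20 nt. They are shown because the member regions were searched for them. Which probe was in which pool is not given in the sources used here.
PAM #1: gccagaaagaatggatgact
PAM #2: gcattttcagtgggatcaca
PAM #3: acctgccatctgctatcaaa
PAM #4: tcttcacaaaccctcatgat
PAM #5: acaagtacttcagctccatg
PAM #6: gttctgatatgtaagctcct
All were antisense to the annotated PAM transcript (Gm12603-001, 618 nt after splicing), from base 65 to 84 for PAM #1 up to base 543 to 562 for PAM #6.

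Of the 9 members, Timp2 held a region of each pool, Mmp2 and Mmp14 each held an odd region, and the other 6 held none. These 3 genes encode proteins that act together in the activation of proMMP2, but whether this role relates to the regions was not tested. Across all protein-coding genes, 6.47% held at least 1 odd region (1445 genes), against 3 of the 9 members. At least 1 even region was held by 0.998% of genes (223), and regions of both pools by 0.698% (156), against 1 member for each. The members were chosen because Timp2 is the gene the study follows, so these shares are set side by side only as a description. Long genes held regions more often than short ones. An odd region was found in 3.60% of genes with a span of up to 10 kb, in 8.15% of those from 10 to 100 kb and in 9.25% of those over 100 kb, and the corresponding shares for the even pool were 0.655%, 1.02% and 2.17%. Mmp14 was among the short genes, Timp2 and Mmp2 were in the middle class, and Adam12, with a span of 348948 bp, was in the long class and held no region.

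**Figure D1:**
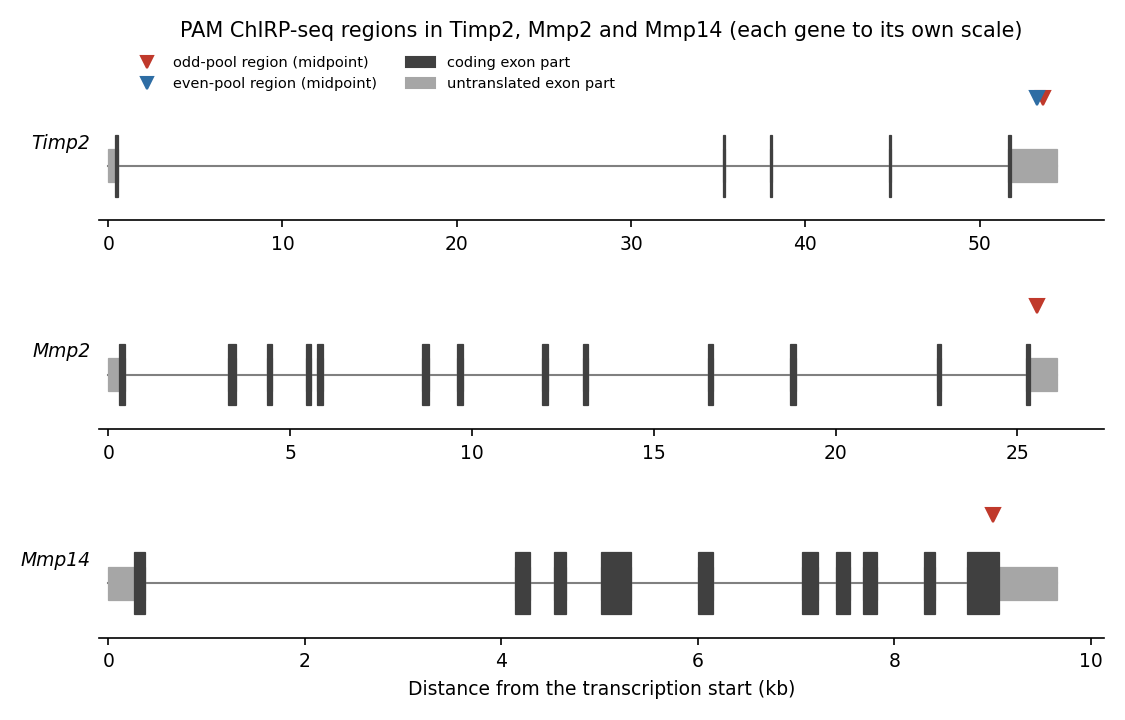
Gene models of Timp2, Mmp2 and Mmp14 drawn from the transcription start (x axis, kb, a separate scale for each gene), with coding exon parts in dark grey, untranslated exon parts in light grey and the midpoint of each ChIRP-seq region as a triangle. All 4 regions sit on the last exon of their gene, and Timp2 has one region of each pool.

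Timp2 (ENSMUSG00000017466.3) lies on the minus strand at chr11:118162383-118217054, away from PAM on chromosome 4. The odd region, chr11:118163080-118163333, had a score of 31, and the even region, chr11:118163404-118163651, had a score of 13. Only 35 of the 2112 odd regions scored higher than 31, which put Timp2 at percentile 98.3 of its list, and 30 of the 345 even regions scored higher than 13, at percentile 90.7. By the highest score in each gene, 23 of the 1445 genes with an odd region and 17 of the 223 genes with an even region ranked above Timp2, where the medians were 6 and 5. Timp2 was therefore near the top of both lists without leading either. The study picked Timp2 from loci found by both its PAM ChIRP-seq and its 4C-seq. Its regions and their rank are thus not independent of that choice.

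Both Timp2 regions were on exon 5 of 5 of the transcript Timp2-001, wholly within the 3′ untranslated part. This exon has 2828 bp, of which 195 bp are coding. In the direction of transcription the even region came first, beginning 1361 bp after the stop codon, and the odd region began 1679 bp after it and ended 697 bp before the end of the transcript. The midpoints were 53292 and 53613 bp from the transcription start, at 69.1% and 77.8% of the spliced length of 3709 nt. The promoter, exons 1 to 4 and all introns of Timp2 held no region, and neither did BC100451, a gene on the same strand within Timp2. The other annotated transcript, Timp2-002, does not include the part of exon 5 in which the regions lie.

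The odd and even regions at Timp2 did not overlap and were separated by 70 bp. Of the 156 protein-coding genes with regions of both pools, 105 had an odd and an even region that overlapped, and Timp2 was among the 51 that had none. Annotated genes that overlap each other can share regions and were counted separately, so these are not all distinct loci. In these 51 genes the distance between the nearest odd and even regions ranged from 6 to 1049602 bp with a median of 316 bp, and 8 genes had a shorter distance than Timp2. All odd regions were 254 bp wide and all even regions 248 bp, so overlap and distance depend on these fixed widths. The distance at Timp2 was shorter than the width of a region.

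**Figure D2:**
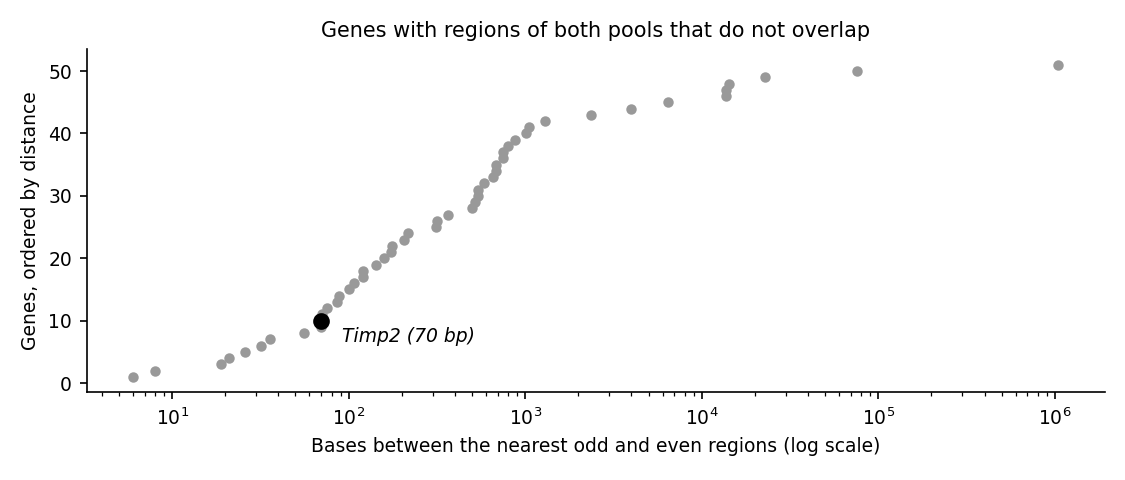
Distance between the nearest odd and even regions (x axis, bases, log scale) in the 51 protein-coding genes with regions of both pools that do not overlap, each gene a point ordered by distance (y axis). Timp2, in black, is at 70 bp, where 8 genes have a shorter distance and the median is 316 bp.

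Mmp2 (ENSMUSG00000031740.7), on the plus strand at chr8:95351227-95377316, had a single odd region at chr8:95376628-95376881 with a score of 11. Higher scores were held by 277 odd regions and the same score by 71, which is percentile 85.2. The region was on exon 13 of 13, began 63 bp after the stop codon and ended 435 bp before the end of the transcript, with its midpoint at 81.5% of the spliced length. No even region was listed in Mmp2, and the nearest one on the chromosome was 20.7 Mb upstream, in the 3′ untranslated part of Tpm4.

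Mmp14 (ENSMUSG00000000957.8), on the plus strand at chr14:55050441-55060095, also had a single odd region, chr14:55059321-55059574, with a score of 12. There were 230 odd regions with a higher score, so that it stood at percentile 88.0, close to Mmp2 and below Timp2. The region was on exon 10 of 10 with its midpoint at 75% of the spliced length, and unlike those of Timp2 and Mmp2 it covered the stop codon, with 186 coding bases before it and 65 untranslated bases after it. A further odd region with a score of 11, chr14:55060317-55060570, began 221 bp beyond the annotated end of Mmp14, where no gene is annotated, and by the rule it was not counted. No other member had an additional region within 20000 bp of its span. Gm11067, a gene on the opposite strand within Mmp14, held no region. The nearest even region was 8.70 Mb downstream of Mmp14, in Ctsb.

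**Figure D3:**
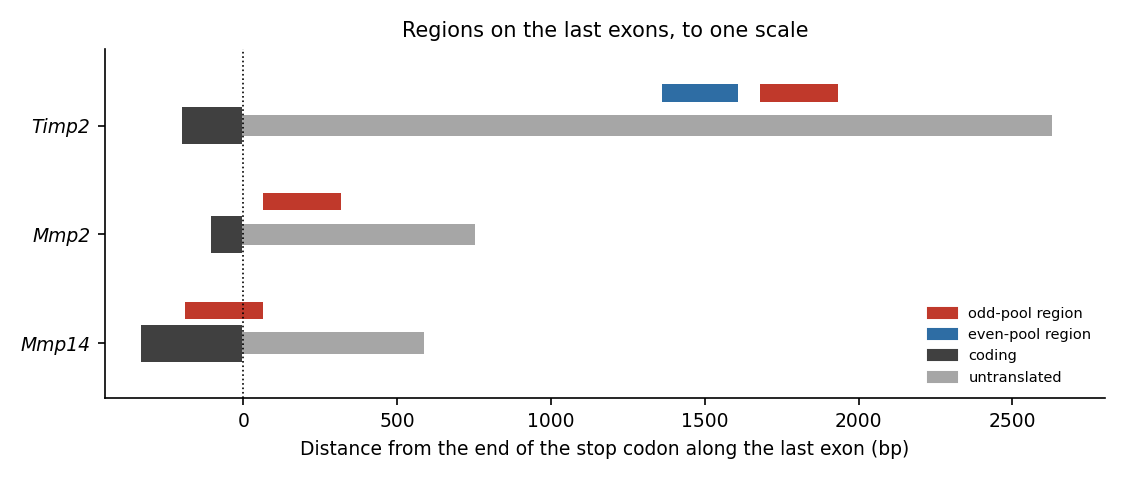
Last exons of Timp2, Mmp2 and Mmp14 drawn to one scale and aligned at the end of the stop codon (x axis, bp), with odd regions in red and even regions in blue above the exon. The Timp2 regions begin 1361 and 1679 bp after the stop codon, the Mmp2 region begins 63 bp after it, and the Mmp14 region spans it.

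A place on the last exon was common in the lists as a whole, where its share overlaps those of coding sequence and 3′ untranslated parts. Of all odd regions, 52.2% had their midpoint on the last exon of a protein-coding transcript, 43.7% in a 3′ untranslated part and 28.7% in coding sequence, while 9.0% were in introns and 11.5% between genes. In the even pool the last exon held 36.5%, the 3′ untranslated part 31%, coding sequence 20%, introns 18% and the space between genes 24.6%. A stop codon was covered by 14.3% of odd regions, as in Mmp14. The member regions were on a last exon in 4 of 4 cases, a place that held 52.2% of all odd and 36.5% of all even regions.

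The scores of the member regions spread from 11 to 31 in the odd list, where all 3 were above the median of 6. Timp2 had the highest, followed by Mmp14 and Mmp2, which differed by 1. Without replicates, whether a difference of this size would be seen again was not tested. The only even region of the group, that of Timp2, was also above the median of its list.

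**Figure D4:**
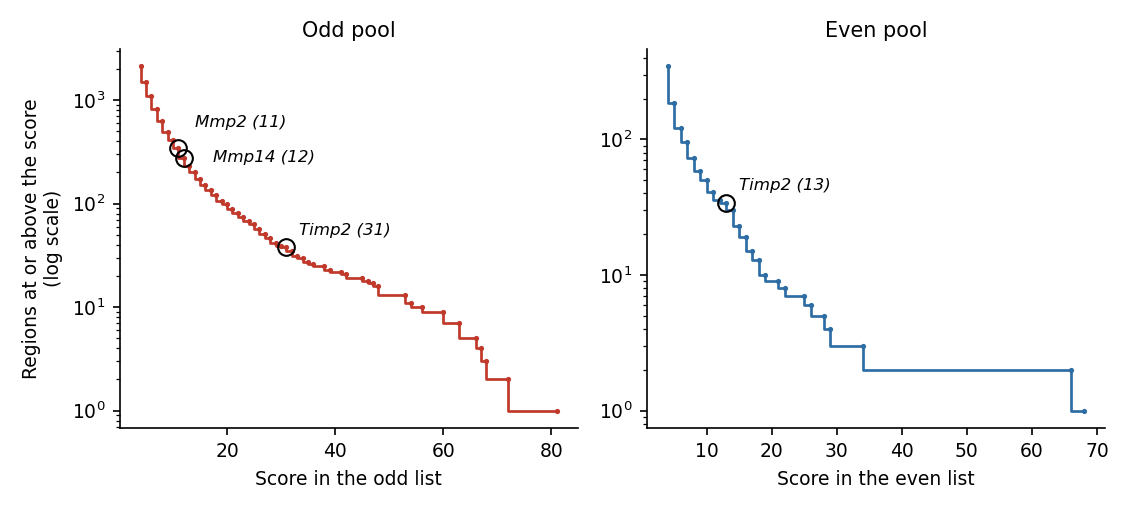
Number of regions at or above each score (y axis, log scale) against the score (x axis, no unit given) in the odd list (left) and the even list (right), with the member regions circled and their score in brackets. Timp2 lies far down the tail of the odd list at 31, with Mmp14 at 12 and Mmp2 at 11 nearer to the bulk, and Timp2 at 13 is the only member in the even list.

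The member regions had no long match to a probe or to the annotated PAM transcript. The longest exact match between any probe and a region, on either strand, was 8 nt for the odd region of Timp2 and for Mmp14, and 7 nt for the even region of Timp2 and for Mmp2. A match of at least 8 nt was found in 44.4% of all odd regions, and one of at least 7 nt in 88.8% of odd regions and 91.3% of even regions. The longest matches in either list had 13 nt. The sites of Timp2 and Mmp2 are shown on the strand of the gene, in windows of 30 bases with the matching letters in capitals.
Timp2 odd region, PAM #6, chr11:118163249-118163278: cggtggtatcaATATGTAAcagtgcctgtt
Timp2 even region, PAM #2, chr11:118163536-118163565: gttccttttgtAAAATGCttccaaaagcct
Mmp2 odd region, PAM #5, chr8:95376672-95376701: cttcacctggtgACTTCAGatttaagaggg
At the sites shown, the probe letters read along the gene strand at the odd region of Timp2 and at Mmp2. They read along the opposite strand at the even region of Timp2. With the annotated PAM transcript of 618 nt, the longest match was 9 nt at Mmp2 and 8 nt at the other 3 regions. The median over each list was 9 nt. The study reports a longer PAM sequence cloned from C2C12 cells, which was not searched. At least 8 nt matched in 94.2% of odd regions and 95.1% of even regions, and at least 9 nt in 67.9% of odd regions.

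The member regions were also unique in the genome. Every one of the 224 31-base words of each odd region and the 218 of the even region occurred 1 time in mm9 on both strands together. The GC content was 45.7% and 48.4% in the odd and even regions of Timp2, 53.1% in Mmp2 and 61.4% in Mmp14, while the middle of the odd list ran from 42.9% to 55.5% (quartiles, median 49.6%) and that of the even list from 41.9% to 53.6% (median 48.0%). Mmp14 alone was above the upper quartile of its list.

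For Timp2, the study also tested contacts with the PAM locus by 3C, for which it designed 4 primers. They are shown because they mark where on the chromosome those contacts were read.
Timp2 #1: tgtagttgtggcagtgaaca
Timp2 #2: cccgactgctcttccgaa
Timp2 #3: agagtttagccaggcaatgtg
Timp2 #4: ctctcaggaagctcagggtc
Primers #1, #3 and #4 each had a single exact match in mm9. Primer #1 (chr11:118136745-118136764) lay beyond the 3′ end of Timp2, 26.3 kb from the odd region, and primers #3 (chr11:118230067-118230087) and #4 (chr11:118235963-118235982) lay 13.3 and 19.2 kb upstream of the transcription start, 66.7 and 72.6 kb from the odd region. Primer #2 matched within an intron of Timp2 (chr11:118198383-118198400), 35.0 kb from the odd region, but its 18 letters occurred 7015 times in mm9. The ChIRP-seq regions of Timp2 thus lay between the match of primer #1 and that of primer #2 within Timp2, and at none of the primers. The study describes the contacts as made with the Timp2 promoter. Its 3C cut chromatin with the restriction enzyme BglII, and the BglII fragments were not mapped here. Whether a region shared a fragment with a primer was therefore not examined.

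Within 1 Mb on each side of Timp2, where 35 protein-coding genes were annotated, there were 5 odd regions and 1 even region outside Timp2. Whether this is more or fewer than in other windows of this size was not tested. The nearest was an odd region between genes, 50.4 kb away with a score of 5, and the even one was in an intron of Cyth1, 96.7 kb away with a score of 4. The others were in Birc5 (score of 4) and Sept9 (scores of 11, 7 and 4), so that every neighbour scored below the 31 and 13 of Timp2 in its own list.

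The other 3 Timp genes had no region in either list. Timp1, Timp3 and Timp4 each lie inside a synapsin gene on the opposite strand, Timp1 in Syn1, Timp3 in Syn3 and Timp4 in Syn2, and these hosts held no region either, nor did Gm17482, which also spans Timp4. Timp2 differs from its relatives in this arrangement, having no synapsin host. The nearest odd region was 344.4 kb downstream of Timp3, in Hsp90b1, 553.7 kb upstream of Timp4, in Rpl32, and 7.58 Mb upstream of Timp1, in Ddx3x. The nearest even region was 344.9 kb from Timp3, again in Hsp90b1, 4.11 Mb from Timp4 and 50.3 Mb from Timp1. TIMP1 and TIMP4 are secreted inhibitors like TIMP2, and TIMP3 binds to the matrix and inhibits members of the ADAM family besides MMPs.

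Among the proteases, Mmp3, Mmp9 and Adam12 had no region. MMP9 is the gelatinase most similar to MMP2, MMP3 (stromelysin) cleaves many matrix proteins and other pro-MMPs, and ADAM12 is a membrane metalloprotease that is expressed in regenerating muscle. The nearest odd region was 101.4 kb upstream of Mmp9, in Ctsa, 336.2 kb downstream of Mmp3, in Tmem123, and 2.95 Mb downstream of Adam12, where Fgfr2 and Htra1 overlap. The nearest even regions were 494.5 kb, 2.36 Mb and 6.72 Mb away, respectively. A130023I24Rik and AC125372.1, which lie within Adam12, held none.

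Few genes of the wider protease families held a region. Of the 19 other Mmp genes, 1 had an odd region (5.26%), Mmp11, with a score of 6 in coding sequence on exon 7 of 9. Of the 31 other Adam genes, 2 had odd regions (6.45%), both encoding sheddases that release proteins from the cell surface. These were Adam10, with 2 regions that each scored 5, and Adam17, with a score of 6, all on the last exon. Of the 24 Adamts and Adamtsl genes, 2 had an odd region (8.33%), Adamts1 with a score of 6 and Adamts4 with a score of 5, again on the last exon. No gene of these 3 families had an even region, where the share over all protein-coding genes was 0.998%, and the odd shares were near the 6.47% of all protein-coding genes.

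Cofactors of the proteases and genes of the plasminogen system held regions in 7 of 16 cases in the odd pool (43.8%) and 3 of 16 in the even pool (18.8%). Over all protein-coding genes the shares were 6.47% and 0.998%. This list and those that follow were chosen by hand with earlier results of these data known. Those with both were Bsg, Thbs1 and Pcolce. Bsg encodes basigin, an inducer of MMPs, and had odd scores of 13 and 12 and an even score of 5. Thbs1, which encodes thrombospondin 1, had odd scores of 29, 23 and 8 and even scores of 9 and 4. Pcolce, which encodes an enhancer of procollagen cleavage, had odd scores of 13, 8 and 8 and an even score of 5. Odd regions alone were found in Lrp1, the endocytic receptor that clears protease and inhibitor complexes (top score 14), Cd44, the hyaluronan receptor (14), Plau, which encodes urokinase (8), and Thbs2 (5). Reck, which encodes a membrane-bound MMP inhibitor, and Furin, which encodes the protease that processes proMMP14, held no region.

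Of the 15 other matrix-degrading enzymes and their inhibitors, 6 had odd regions (40%) and 3 had even regions (20%), against 6.47% and 0.998% of all protein-coding genes. The 3 genes with both encode the lysosomal cathepsins B, D and L. Ctsb had an odd score of 22 and an even score of 8, Ctsd had odd scores of 16, 8 and 6 and an even score of 7, and Ctsl had odd scores of 11 and 9 and even scores of 5 and 4. At Ctsb, as at Timp2, the single odd and even regions were on the last exon without overlapping, 26 bp apart. At Ctsd the nearest odd and even regions were likewise on the last exon, 86 bp apart, while its other odd regions, with scores of 8 and 6, were on exons 5 and 2. Cst3, which encodes the cathepsin inhibitor cystatin C, had odd scores of 11 and 9, Htra1 had 9, and Bmp1, the procollagen C-proteinase, had 6.

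The genes of matrix proteins that these proteases cut held more regions than any of the other lists or the members. Of 20 substrate genes, 14 had odd regions (70%) and 8 had even regions (40%), against 6.47% and 0.998% of all protein-coding genes. In total they held 63 odd and 21 even regions, against 3 and 1 in the 9 members. Fn1 alone held 26 of the odd and 10 of the even regions, and Col3a1 held 8 and 4. Higher top scores than that of Timp2 in both lists were held by Fn1 (fibronectin, 81 and 25) and Sparc (72 and 22), as well as by Bgn (biglycan, 41 and 15). Col3a1 had a higher top score in the odd list (53) and the same in the even list (13), and Col1a2 had 38 and 11. The other genes with both pools were Nid1 (18 and 6), Col4a2 (9 and 4) and Col1a1 (7 and 4), and of those with odd regions alone Dcn and Fbn1 reached 12 and Col5a2 reached 9. The lists were chosen with earlier results of these data known, and their shares are descriptions.

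**Figure D5:**
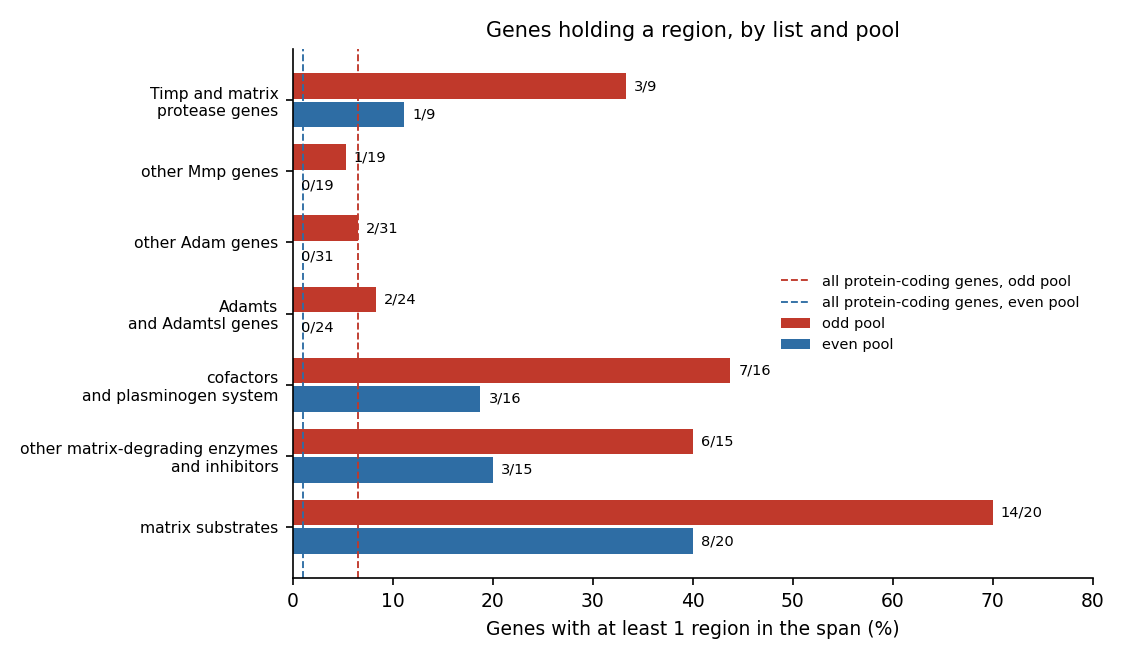
Share of genes with at least 1 region in the span (x axis, percent) for the members and 6 lists of related genes, with the odd pool in red, the even pool in blue, counts beside the bars and dashed lines for all protein-coding genes (6.47% and 0.998%). The other Mmp, Adam and Adamts families lie near or under the line of the odd pool with 0 genes in the even pool, while the substrate genes reach 14 of 20 and 8 of 20.

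The pattern of Timp2, 1 odd and 1 even region that do not overlap, was shared by 30 other protein-coding genes. Genes among them that overlap each other can share the same regions. Likeness was measured over these 2 libraries as the sum of the absolute differences from Timp2 in odd score and in even score. This sum gives a step of 1 the same weight in both lists, although the scores of the lists may not share a scale, so the order is only a description. The most similar gene was Tubb5, a beta-tubulin gene, with scores of 31 and 10, a sum of 3 and regions 88 bp apart in the coding part of its last exon. It was followed by Ly6a, which encodes the cell surface protein Sca-1 (25 and 7, sum 12), Ctsb (22 and 8, sum 14), Gas1 (23 and 5, sum 16) and Ugcg (20 and 7, sum 17). In all 5 genes both regions were on the last exon, with 6 to 316 bp between them. None of the 5 had a higher score than Timp2 in either list.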

How the data were processed

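PAM ChIRP-seq of ASCs was analysed for 2 of the 3 samples, the odd and the even pool. Per the labels and the study's methods, the authors used Bowtie2 (unique alignments, mm9) and then MACS2. The deposited lists, one from each pool, give regions of uniform width and, in column 4, a score. Versions, thresholds, the use of the input and the meaning of the score are not given in the sources used here. A peak list holds only what passed the authors' threshold, so weaker signal is not seen.

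Starts were taken as 0-based, and coordinates are printed 1-based. Genes, exons and coding parts came from GENCODE M1, whose genome (NCBIM37) is mm9. Positions refer to the transcript with the most exons, and a region was classed by its midpoint, with coding sequence before untranslated parts. A percentile counts ties by 0.5. Exact matches and 31-base words were counted on both strands. The sequence of the Mmp14 region is not reported here. RefSeq promoter sequences were not used here, since that table is on GRCm38.

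The members and lists were chosen with earlier results of these data known. The named genes are the members, genes overlapping them, list genes with both pools or the 3 next highest scores in a list, the 5 genes most like Timp2 and the nearest region of each member. Thbs2, Reck, Furin and genes near Timp2 were named after their values were seen. The overlap step was tested on simulated data, where 200 of 200 planted regions were recovered. Python 3.11.15, NumPy 2.4.6, numba 0.67.0, matplotlib 3.10.9 and samtools 1.23.1 were used.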

Additional observations from a re-analysis of the deposited data

How the results depend on the processing

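The number of members with a region was the same under the 7 alternatives tried for it, from wider gene spans to protein-coding transcripts only. With spans extended by 1000 or 20000 bp, the members held 4 odd regions instead of 3, the added one lying 221 bp beyond Mmp14. Of 79 recomputed values, 71 stayed within their interval (95% Wilson) or within 1.5 times the count, or were equal in the case of the Timp2 distance. Many of these could not change. The Timp2 percentiles use only the scores of a list, so settings of span, overlap, start or transcript cannot move them. The lowest member score was 11, so a cut at 5 cannot remove a member region. The 71 are thus no measure of robustness. With regions scoring at least 5, Timp2 stood at percentile 97.6 of the odd list and 82.9 of the even list, and 4.65% and 0.550% of protein-coding genes held an odd or even region. With spans extended by 20000 bp these shares were 13.2% and 2.12%, and with 1000 bp the odd share was 6.96%. Reading the start as 1-based set the Timp2 regions 69 bp apart. These changes follow from how each alternative is built (fewer regions, wider spans, a start shifted by 1). No paired analysis was possible because neither pool has a second library, and likewise no replicate could be left out. Depth is unknown, so absence of a region cannot be told apart from too few reads.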
